A study of Mus musculus with 4 samples.

Results

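Transcripts of 9 genes for transcription factors and nucleic acid sensors of the interferon response were followed in *Tmpo* KO and WT dermal fibroblasts of the mouse. The genes were chosen by name: the factors *Stat2*, *Irf1*, *Irf7* and *Irf9*, the RNA helicase sensors *Ddx58*, *Ifih1* and *Dhx58*, the sensor *Zbp1* of unusual nucleic acid duplexes and the endosomal receptor *Tlr3*. They are 9 of the 23732 genes with a symbol in the counts, and each is described by the RefSeq transcript ID with the most reads. *Stat2* rose in KO cells and was the only one of the 7 genes with enough reads for a test to pass it. *Ddx58*, *Ifih1*, *Dhx58*, *Zbp1* and *Tlr3* were also highest in the KO library of passage 42, at 3.53 to 14.2 times the WT library of that passage. At passage 34 the same 5 genes stood at 0.668 to 3.47 times WT.

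The cells were immortalized murine dermal fibroblasts (imMDFs) of genotype Lap2alpha -/- (*Tmpo* KO) or Lap2alpha +/+ (*Tmpo* WT), untreated and grown in the same medium. RNA depleted of rRNA was sequenced in 4 libraries, with 1 KO and 1 WT library at passage 42 (replicate 2) and 1 of each at passage 34 (replicate 1). LAP2alpha is the isoform of the *Tmpo* gene that binds A-type lamins in the nuclear interior. The sources name 1 line per genotype, so the deletion and any other difference between the lines cannot be told apart, and nothing says that libraries of 1 genotype come from cultures separated by more than their passage. The p-values therefore reflect library-to-library spread alone, part of which may be technical.

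The files give raw counts per RefSeq transcript ID, with 19603812 and 15786136 reads on transcripts in KO cells at passages 42 and 34, against 15677378 and 12168433 in WT cells. Levels are given as CPM, counts per 1000000 of these reads. The LAP2alpha transcript of *Tmpo* had 6 counts in each KO library, against 1324 and 903 in the WT libraries of passages 42 and 34, as the labels state. Of the fibroblast markers *Col1a1*, *Col1a2*, *Col3a1* and *Vim* had at least 894 CPM in every library, whereas both IDs of *Pdgfrb* had no count. *Dcn*, a proteoglycan gene with 2 IDs, was low, at 3.93 and 4.37 CPM in KO cells at passages 42 and 34 and 6.12 and 12.3 CPM in WT cells (log2 fold change -1.18, SE 0.398, edgeR adjusted p = 0.194). *Pdgfra*, a growth factor receptor gene with 2 IDs, was also low, at 1.48 and 3.67 CPM in KO cells and 4.08 and 2.63 CPM in WT cells. *Thy1*, a surface protein of many fibroblasts, rose in KO cells (log2 fold change 1.80, SE 0.268, edgeR adjusted p = 0.00469). *Ptprc*, the pan-leukocyte marker, has 3 IDs, and the one with the most reads had at most 0.255 CPM in any library, and the 8 macrophage and leukocyte markers summed to 17.4 and 23.7 CPM in KO cells at passages 42 and 34 and to 12.6 and 16.9 CPM in WT cells. *Csf1r*, the macrophage growth factor receptor, had 9.08 and 11.02 CPM in KO cells and 5.23 and 5.42 CPM in WT cells, and the part of such RNA in the results was not tested. The 5 melanocyte markers summed to 33.0 and 46.2 CPM in KO cells and to 39.0 and 29.996 CPM in WT cells, most of it *Tyr*, the tyrosinase gene, at 29.5 and 41.4 CPM in KO cells and 35.1 and 25.8 CPM in WT cells. The 5 endothelial and 6 keratinocyte markers summed to at most 6.12 and 17.0 CPM in a library. In these bulk samples a larger share of responding cells and more RNA per cell cannot be told apart.

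Cells detect foreign or misplaced nucleic acids with sensors in the cytosol, nucleus and endosomes. RIG-I (gene *Ddx58*) and MDA5 (*Ifih1*) bind double-stranded RNA and signal through the adaptor MAVS, LGP2 (*Dhx58*) modulates both, TLR3 signals from endosomes through TRIF, and ZBP1 binds Z-form nucleic acids and can start cell death. The signals activate IRF factors that switch on type I interferon, and secreted interferon assembles ISGF3, a complex that holds STAT2 and IRF9, which binds interferon-stimulated response elements (ISREs). Many genes of sensors and factors are themselves interferon targets, and fibroblasts are a classic cell type in which this loop has been studied.

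Promoter windows were read to show which of these elements lie at the genes' start sites. RefSeq (GRCm38.p6) gave 9 windows, from 250 bases before to 50 after a start, for 7 of the 9 genes. They were searched on both strands for the ISRE core (GAAA, any 2 bases, GAAA), for the related GAAANGAAA and for the palindromic STAT family element TTCNNNGAA. *Stat2* held the ISRE core at positions -222 to -213 from its start, overlapping a GAAANGAAA match at -216 to -208. *Ddx58* held GAAANGAAA at -60 to -52 and the ISRE core at 3 to 12 after the start. In *Ifih1* the ISRE core stood at 33 to 42 after the start. *Irf1* held TTCNNNGAA at -90 to -82 of 1 of its 2 starts. Among 32851 windows of all genes, 3.44% held the ISRE core, 3.17% held GAAANGAAA and 8.30% held TTCNNNGAA. The windows of *Irf7*, *Irf9* and *Tlr3* held none of the 3, and *Dhx58* and *Zbp1* had no window. The stretches with a match follow, 5′ to 3′ on the strand of the gene, with the matched bases in capitals. That of *Stat2* lies at chr10:128270248-128270497 (plus strand), those of *Ddx58* at chr4:40239826-40240075 and chr4:40239804-40239833 (minus strand), that of *Ifih1* at chr2:62646206-62646235 (minus strand) and that of *Irf1* at chr11:53769764-53770013 (plus strand).
Stat2, 250 bases before the start: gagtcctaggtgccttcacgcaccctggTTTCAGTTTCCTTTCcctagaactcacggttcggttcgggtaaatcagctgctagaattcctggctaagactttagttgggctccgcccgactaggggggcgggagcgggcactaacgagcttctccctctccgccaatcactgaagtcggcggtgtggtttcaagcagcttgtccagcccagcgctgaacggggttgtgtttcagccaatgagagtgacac
Ddx58, 250 bases before the start: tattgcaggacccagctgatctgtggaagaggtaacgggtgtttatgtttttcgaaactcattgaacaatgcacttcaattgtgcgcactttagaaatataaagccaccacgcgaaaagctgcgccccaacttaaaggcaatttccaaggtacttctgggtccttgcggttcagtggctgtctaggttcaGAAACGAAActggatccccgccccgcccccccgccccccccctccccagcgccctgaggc
Ddx58, 30 bases around the match after the start: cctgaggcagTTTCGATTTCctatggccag
Ifih1, 30 bases around the match after the start: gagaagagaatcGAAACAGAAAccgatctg
Irf1, 250 bases before the start: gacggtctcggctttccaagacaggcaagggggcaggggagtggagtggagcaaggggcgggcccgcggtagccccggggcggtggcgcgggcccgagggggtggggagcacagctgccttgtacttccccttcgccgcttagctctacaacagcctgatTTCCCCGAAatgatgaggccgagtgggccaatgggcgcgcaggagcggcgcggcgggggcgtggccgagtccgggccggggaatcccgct
A match is a description of letters. No binding was measured at these sites here.

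The counting bears on what each gene shows. Every RefSeq ID was a feature of its own, so reads in exons that several IDs share were set aside as ambiguous. *Stat2*, *Ddx58*, *Dhx58* and *Tlr3* have 1 ID each, so no reads were lost to other IDs of the same gene. *Irf1*, *Irf7* and *Irf9* have 3 IDs and *Ifih1* and *Zbp1* have 2, and these 5 were counted only where their IDs differ. Among all genes with 1 ID, 4.01% had no count in any library, against 20.5% of genes with 3 or more IDs.

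*Stat2* (chr10:127707629-127729905, plus strand, NCBIM37), the STAT of the ISGF3 complex, was counted 1869 and 519 times in KO cells at passages 42 and 34, against 294 and 207 times in WT cells. Its level was 95.3 and 32.9 CPM in KO cells and 18.8 and 17.0 CPM in WT cells, a mean of 64.1 ± 44.2 CPM and 17.9 ± 1.23 CPM (SD, n = 2 each). Both KO libraries lay above both WT libraries, and the WT libraries were close to each other. Across genotypes *Stat2* rose by 1.83 on the log2 scale (SE 0.414, edgeR quasi-likelihood test over 13855 transcripts, adjusted p = 0.0399). The KO to WT ratio was 5.08 at passage 42 (95% exact interval 4.49 to 5.77) and 1.93 at passage 34 (1.64 to 2.28), where the intervals cover counting error only. The passage 42 ratio was thus above that of passage 34 by more than counting error. Without the KO library of passage 42 the log2 fold change fell to 0.78. It was 1.80 without the WT library of passage 34 and 1.89 without that of passage 42. *Stat2* was not called in any of these fits. Each such fit leaves 1 library in a genotype, so its spread comes from the other genotype alone. Such a fit therefore cannot decide whether the call holds.

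*Irf1* (chr11:53583516-53591876, plus strand), an early activator of interferon and antiviral genes, lay on the other side of WT, at low counts. Its ID with the most reads had 13 and 15 counts in KO cells, against 17 and 16 in WT cells. Both KO libraries lay below both WT libraries, at 0.663 and 0.95 CPM in KO cells and 1.08 and 1.31 CPM in WT cells. The difference did not pass the test (log2 fold change -0.60, SE 0.449, edgeR adjusted p = 0.693), and the interval of the ratio included 1 at passage 42 (0.273 to 1.34) and at passage 34 (0.333 to 1.56). The second ID had 8 to 10 counts per library and the third had none. *Irf1* passed the filter on low counts only through the WT libraries, and it overlaps the gene *Gm17334* on the other strand.

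*Irf9* (chr14:56222408-56228867, plus strand) encodes the DNA-binding part of ISGF3. One ID had 18 and 0 counts in KO cells at passages 42 and 34, against 2 and 3 in WT cells. At passage 42 this was a ratio of 7.2, with a wide interval from 1.72 to 64.0. A second ID had 4 and 5 counts in KO cells and 0 and 3 in WT cells, and the third had none. These counts were too low for the test, and the gene overlaps *Rnf31* on the same strand. *Irf7* (chr7:148448605-148452380, minus strand), the factor that amplifies type I interferon production, had 0 counts in all 3 IDs in all 4 libraries. A count of 0 allows up to 0.153 and 0.190 CPM in the KO libraries of passages 42 and 34 and 0.191 and 0.247 CPM in the WT libraries, for the parts of the transcripts that are unique to an ID. It gives no level for the gene as a whole, and *Irf7* overlaps *Phrf1* on the other strand.

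**Figure D1:**
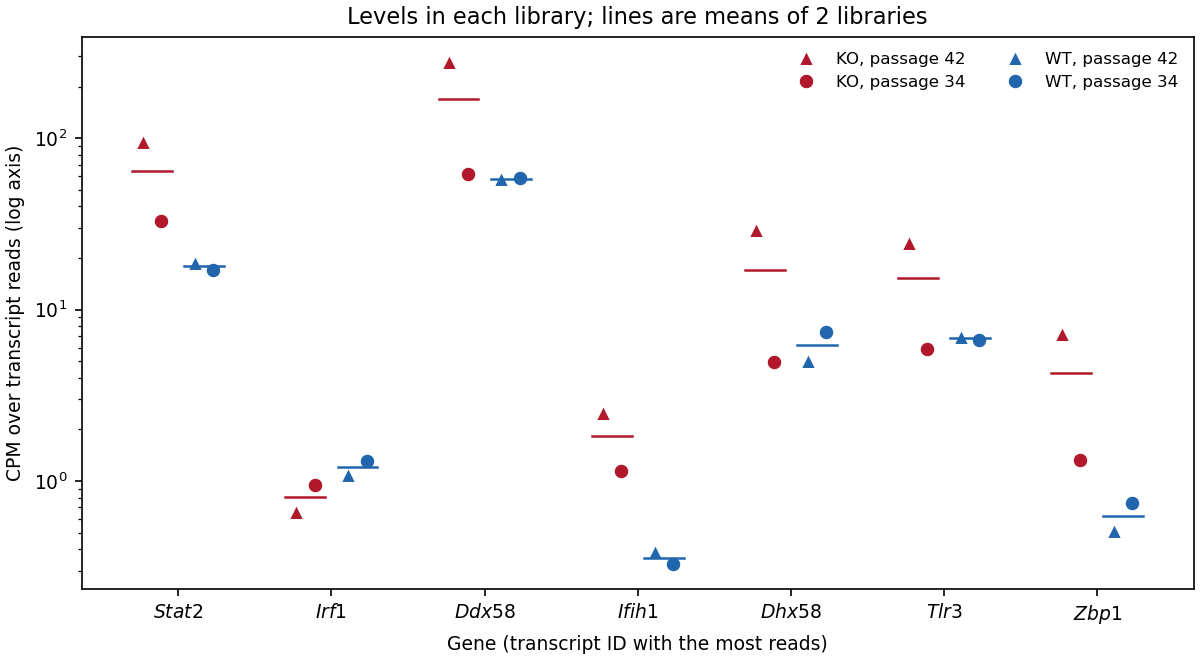
Level of the 7 genes with enough reads in each library, in CPM on a log axis, with triangles for passage 42, circles for passage 34 and lines for the mean of the 2 libraries of a genotype. For 6 of the 7 genes the KO library of passage 42 is the highest, and the WT libraries of both passages lie near each other.

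*Ddx58* (chr4:40150806-40186861, minus strand), which encodes RIG-I, the sensor of short and 5′-triphosphate RNA, was counted 5464 and 974 times in KO cells at passages 42 and 34, against 900 and 708 times in WT cells. This was 278.7 and 61.7 CPM in KO cells and 57.4 and 58.2 CPM in WT cells. The groups did not overlap, but the KO library of passage 34 was level with WT, at a ratio of 1.06 (0.962 to 1.17). At passage 42 the ratio was 4.86 (4.52 to 5.22). Over both passages the difference did not pass the test (log2 fold change 1.55, SE 0.506, edgeR adjusted p = 0.176), and the KO mean of 170.2 ± 153.5 CPM (SD, n = 2) had a spread almost as large as itself. Without the KO library of passage 42 the log2 fold change was -0.0075.

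*Ifih1* (chr2:62433850-62484312, minus strand) encodes MDA5, the sensor of long double-stranded RNA, and had few reads outside the exons its IDs share. It had 49 and 18 counts in KO cells, against 6 and 4 in WT cells, or 2.50 and 1.14 CPM in KO cells and 0.383 and 0.329 CPM in WT cells. Both KO libraries were above both WT libraries, by 6.53 times at passage 42 (2.80 to 18.7) and 3.47 times at passage 34 (1.14 to 14.1). The log2 fold change of 2.32 (SE 0.573) had an adjusted p of 0.0609 in edgeR. *Ifih1* passed the filter only through the KO libraries.

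*Dhx58* (chr11:100556018-100565585, minus strand), for LGP2, the third helicase of the family, had the counts 569 and 78 in KO cells and 79 and 90 in WT cells. Its groups overlapped, with 29.0 and 4.94 CPM in KO cells and 5.04 and 7.40 CPM in WT cells. At passage 42 the KO library was 5.76 times WT (4.55 to 7.38), whereas at passage 34 it was 0.668 times WT (0.487 to 0.915), and neither interval included 1. The log2 fold change over both was 1.46 (SE 0.628, edgeR adjusted p = 0.358), and -0.43 without the KO library of passage 42. *Dhx58* overlaps *Gm11547* on the other strand, and no source used here states whether counting used the strand, so reads of the 2 genes could not be separated.

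*Tlr3* (chr8:46481019-46495962, minus strand), the endosomal receptor of double-stranded RNA, followed the same course. It was counted 481 and 93 times in KO cells and 109 and 81 times in WT cells, or 24.5 and 5.89 CPM in KO cells and 6.95 and 6.66 CPM in WT cells. The KO library of passage 34 was the lowest of all 4 and that of passage 42 the highest. The ratio was 3.53 at passage 42 (2.86 to 4.39) and 0.885 at passage 34 (0.650 to 1.21). The log2 fold change of 1.16 (SE 0.533) did not pass the test (edgeR adjusted p = 0.400) and was -0.31 without the KO library of passage 42.

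*Zbp1* (chr2:173032113-173044424, minus strand) had the largest fitted difference of the 7 genes. Its ID with the most reads had 142 and 21 counts in KO cells, against 8 and 9 in WT cells. This was 7.24 and 1.33 CPM in KO cells and 0.510 and 0.740 CPM in WT cells, and the groups did not overlap. The second ID had 33 and 3 counts in KO cells and 2 and 1 in WT cells. At passage 42 the ratio was 14.2 (7.01 to 33.5), and at passage 34 it was 1.80 with an interval that included 1 (0.790 to 4.46). The log2 fold change of 2.79 (SE 0.747) had an adjusted p of 0.0884 in edgeR. It passed the test in DESeq2 (adjusted p = 0.0115; over the alternatives other than a left-out library its adjusted p lay between 1.54e-06 and 0.0908). Like *Ifih1*, it passed the filter only through the KO libraries.

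**Figure D2:**
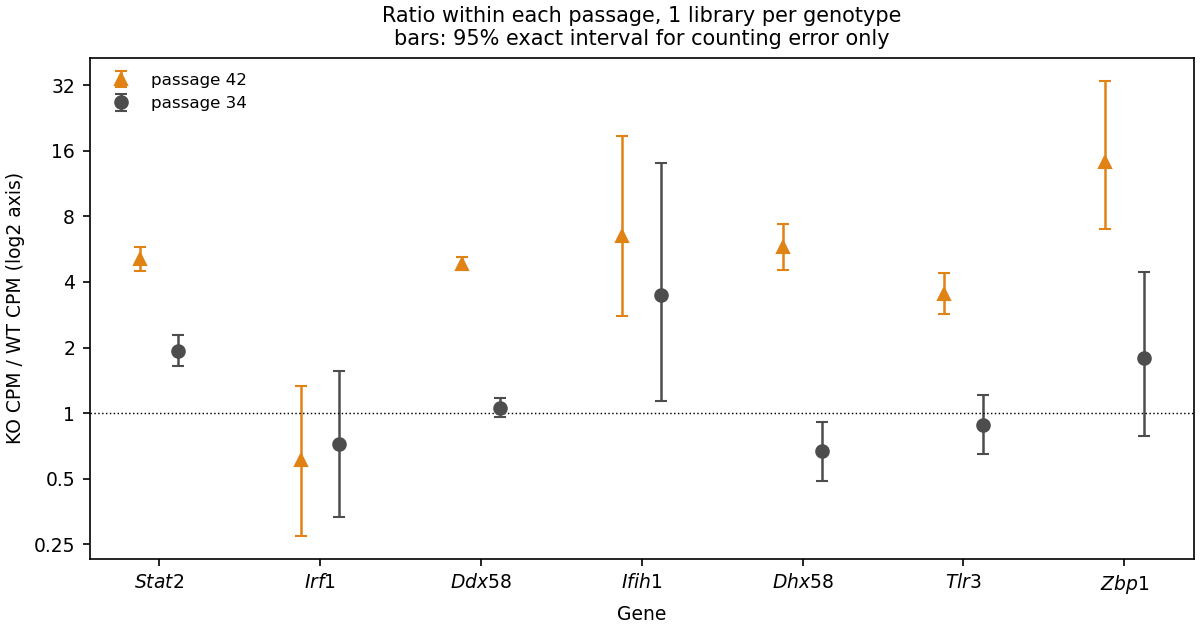
Ratio of the KO to the WT library within each passage, on a log2 axis, with bars for the 95% exact interval of counting error, triangles for passage 42 and circles for passage 34. The intervals of the 2 passages do not overlap for *Stat2*, *Ddx58*, *Dhx58*, *Tlr3* and *Zbp1*, and overlap for *Irf1* and *Ifih1*.

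As a group, 1 of the 7 genes tested was called higher in KO cells and 0 lower, where 1.51% of all 13855 transcripts tested were called higher and 1.24% lower, 2.75% in all. At an unadjusted p under 0.05 the edgeR test counted 5 of the 7, as it did 12.8% of all transcripts. DESeq2 called 2, *Stat2* and *Zbp1*, and gave no adjusted p for *Irf1* and *Ifih1*, so these could not be called. It called 3.92% of all 13855 transcripts, a total that includes those without an adjusted p. With passage as a block edgeR called 4 of the 7 higher, where 4.06% of all transcripts were called higher. These were *Stat2* (log2 fold change 1.64, adjusted p = 6.76e-09), *Ddx58* (1.17, adjusted p = 3.24e-07), *Ifih1* (2.31, adjusted p = 0.00225) and *Zbp1* (2.54, adjusted p = 5.24e-05). The block fit leaves 1 residual degree of freedom, so its p-values lean on spread shared across transcripts. Its SE for *Ddx58* was 0.201, whereas that gene differed from WT by 2.30 at passage 42 and 0.0095 at passage 34 (log2). The block p-values thus do not show that the passages agree. Both KO libraries lay above both WT libraries for 4 genes, *Stat2*, *Ddx58*, *Ifih1* and *Zbp1*, where 23.2% of all transcripts did so, and below for *Irf1*, where 18.5% did. Because *Irf1*, *Ifih1* and *Zbp1* entered through 1 genotype alone, these counts are descriptions. Of the 4 genes that had at least 1 CPM in all 4 libraries, 1 was called.

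**Figure D3:**
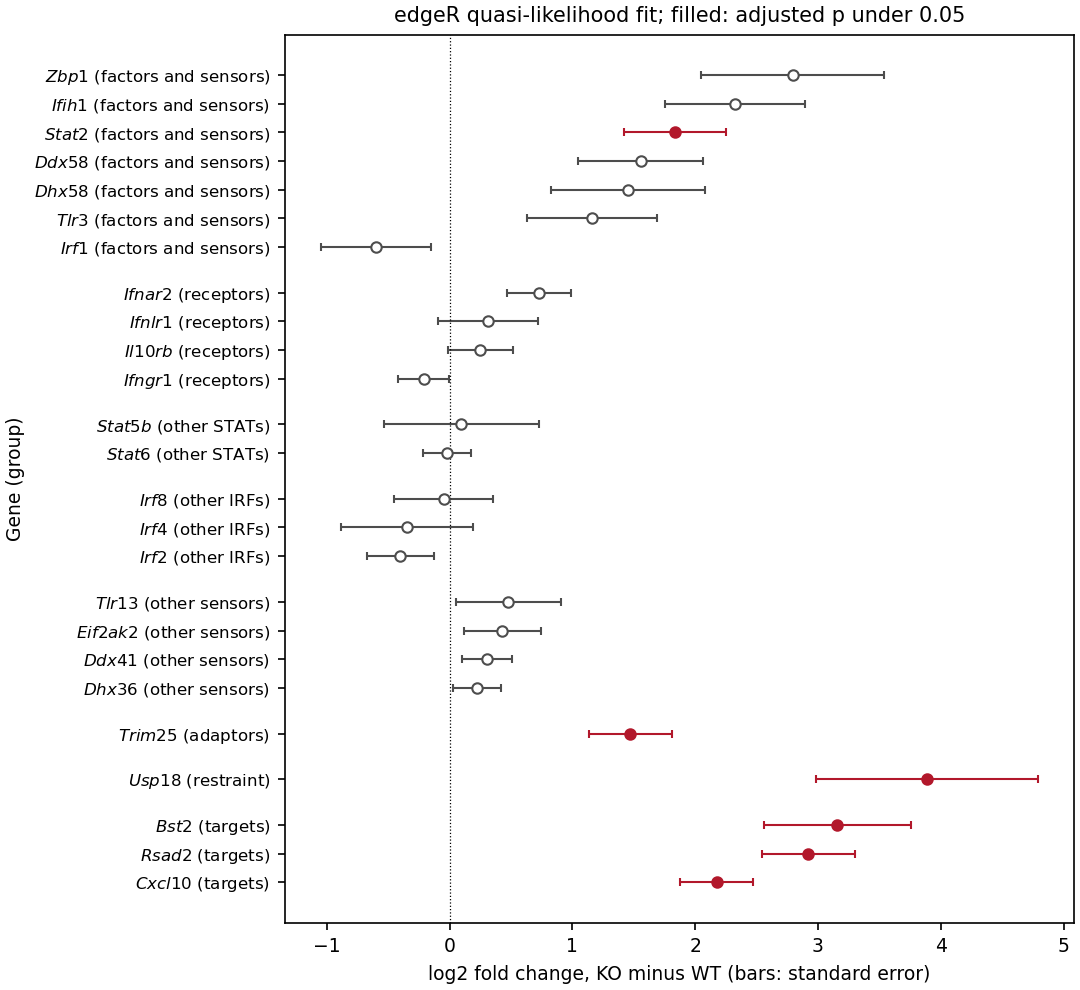
Log2 fold change, KO minus WT, with its standard error, for the 7 factors and sensors tested (above) and genes of the pathway lists, those called or else up to 4 with the smallest p in a list (below), with filled red points for an adjusted p under 0.05 in edgeR. *Stat2*, *Trim25*, *Usp18*, *Bst2*, *Rsad2* and *Cxcl10* are filled.

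The passages were then compared within each genotype. The ratio of passage 42 to passage 34 in KO cells was 5.87 for *Dhx58* (4.63 to 7.54), 5.45 for *Zbp1* (3.43 to 9.07), 4.52 for *Ddx58* (4.22 to 4.84), 4.16 for *Tlr3* (3.33 to 5.26), 2.90 for *Stat2* (2.63 to 3.20) and 2.19 for *Ifih1* (1.25 to 3.998), all with intervals above 1. In WT cells the intervals of the same ratio included 1 for 6 of the 7 genes, the exception being *Dhx58* at 0.681 (0.497 to 0.932). *Ddx58* in WT cells stayed within counting error, at a ratio of 0.987 (0.893 to 1.09). On the log2 scale with a prior count of 2, the 7 genes had a median difference of 2.10 between the passages in KO cells and of -0.05 in WT cells. In KO cells 6 of the 7 exceeded 1, as did 4.48% of all transcripts, and in WT cells 0 of 7 did, against 1.93% of all transcripts.

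Set by passage, the median difference of KO from WT was 2.36 at passage 42 and 0.01 at passage 34, while the median over all transcripts tested was 0.01 at each passage. At passage 42, 6 of the 7 genes exceeded 1 on the log2 scale (4.89% of all transcripts did), and at passage 34 only *Ifih1* did (5.85% of all transcripts). With 1 library per genotype and passage there was no replicate check within a passage, and a model with an interaction of genotype and passage leaves no residual degrees of freedom, so whether the genotypes differ in their change with passage was not testable. An exact permutation test of 2 libraries against 2 gives no two-sided p under 0.333. A fit with genotype as a block, which averages the passages over the genotypes, called 3 of the 7 genes higher at passage 42, where 1.77% of all transcripts were called higher. These were *Ddx58* (log2 difference 1.11, SE 0.201, edgeR adjusted p = 1.5e-05), *Tlr3* (1.12, SE 0.339, adjusted p = 0.0454) and *Stat2* (0.88, SE 0.249, adjusted p = 0.0248). This fit also leaves 1 residual degree of freedom. Its p-values do not reflect that *Ddx58* differed between the passages by 2.24 in KO cells and by -0.05 in WT cells (log2). DESeq2 called 0 of the 7 with passage, of which 2 had an unadjusted p under 0.05.

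**Figure D4:**
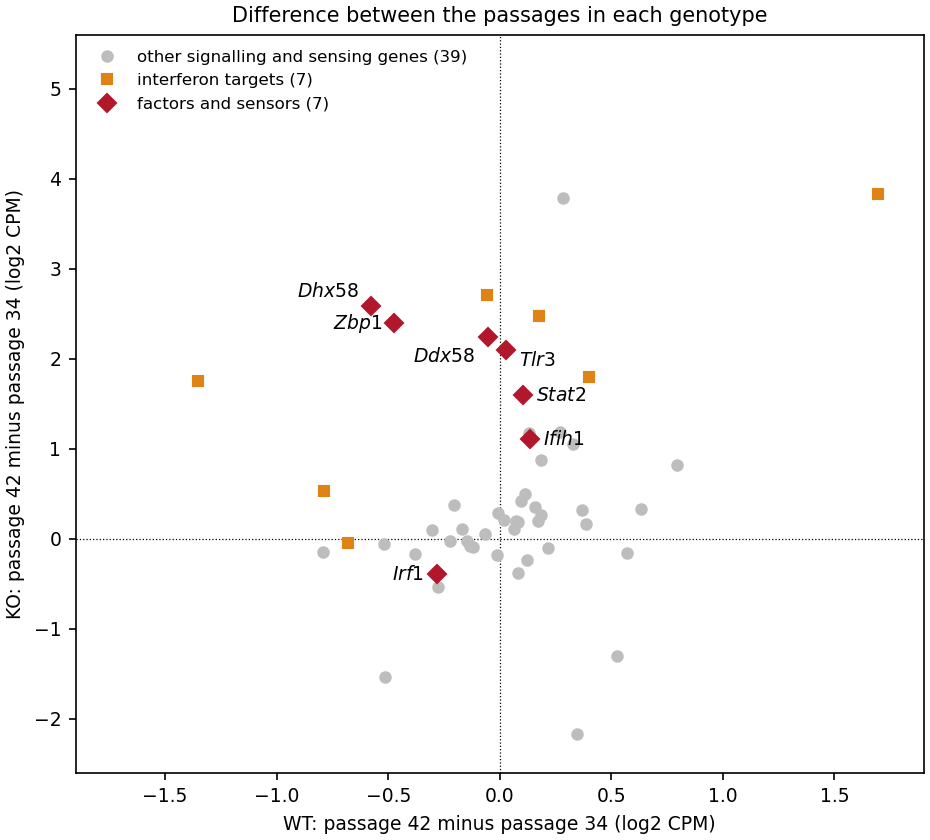
Difference of passage 42 from passage 34 in log2 CPM, in KO cells (vertical axis) and WT cells (horizontal axis), for the 7 factors and sensors (red), 7 interferon targets (orange) and 39 other genes of signalling and sensing (grey). Except for *Irf1*, the factors and sensors lie above 1 in KO cells and between -0.58 and 0.14 in WT cells.

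Which library carried the difference was read from fits with 1 library left out. Without the KO library of passage 34, 6 of the 7 genes were called higher, all but *Irf1*, where 3.61% of all 14259 transcripts tested in that fit were. Without the KO library of passage 42 edgeR called 0 of the 7 (2 at an unadjusted p under 0.05), where 8.52% of 15146 transcripts were called, and *Ddx58*, *Dhx58* and *Tlr3* turned to negative fold changes. *Stat2*, *Ifih1* and *Zbp1* kept a positive fold change of 0.78, 1.55 and 1.00 there. Leaving out either WT library changed the direction of none of the 7 genes, with *Stat2* at 1.80 and 1.89. *Stat2* kept its direction but was not called without either WT library. A fit with a library left out rests on 1 library in a genotype, so it cannot decide whether the call holds.

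**Figure D5:**
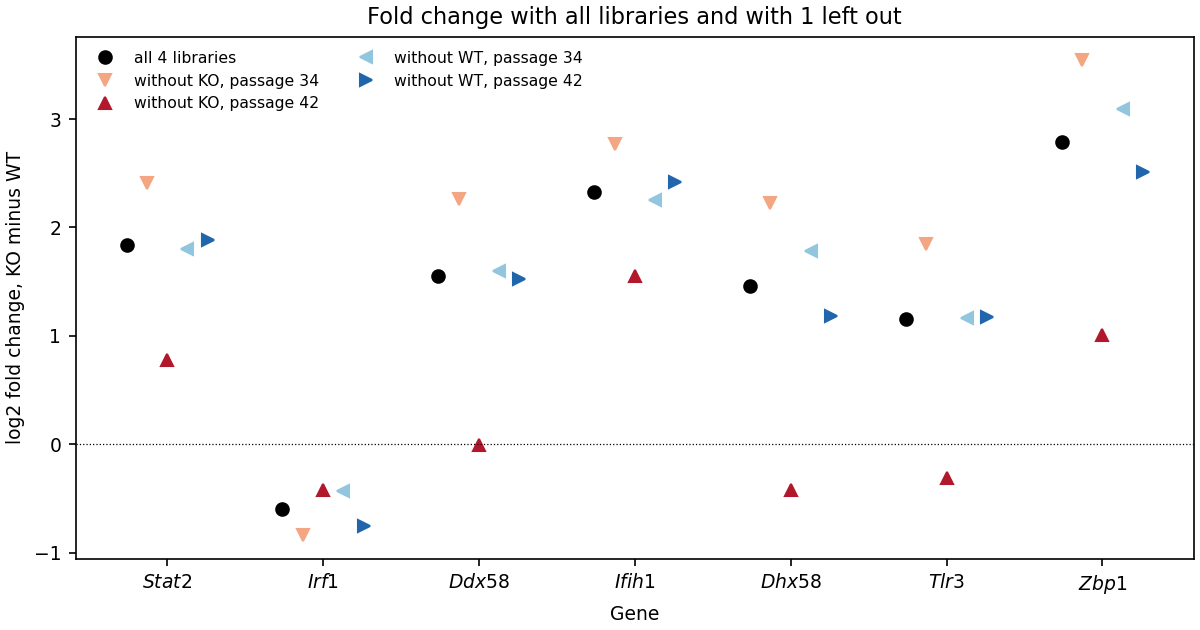
Log2 fold change, KO minus WT, of the 7 genes in edgeR with all 4 libraries (black circles) and with 1 library left out (coloured triangles). The points without the KO library of passage 42 lie lowest for 6 genes, at or below 0 for *Ddx58*, *Dhx58* and *Tlr3*.

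The rest of the pathway was read from 8 lists with 86 genes, of which 46 were tested. Of these 5 were called, all higher in KO cells, where 1.51% of all transcripts tested were called higher. The list of interferon targets held 3 of the 5. Of the 21 interferon genes listed none had more than 14 counts in a library, and none was tested. *Ifnb1*, the interferon beta gene of fibroblasts, had 10 and 3 counts in KO cells at passages 42 and 34 and 4 and 3 in WT cells. Of 8 interferon receptors and kinases tested edgeR called 0, with 1 at an unadjusted p under 0.05, and DESeq2 also called 0. That gene was *Ifnar2*, a subunit of the type I interferon receptor, at 26.9 and 24.7 CPM in KO cells and 15.9 and 14.7 CPM in WT cells (log2 fold change 0.73, SE 0.258, edgeR adjusted p = 0.223).

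Among the other factors, 2 STATs and 3 IRFs were tested and edgeR called 0 of them, with 0 at an unadjusted p under 0.05 and 0 in DESeq2. *Stat6*, the STAT of interleukin 4 signalling, had 108.0 and 119.7 CPM in KO cells and 109.4 and 117.2 CPM in WT cells, and *Stat2* was the only one of the STATs tested here that was called. *Irf2*, an antagonist of *Irf1*, had 32.9 and 27.2 CPM in KO cells and 48.1 and 30.2 CPM in WT cells (log2 fold change -0.40, SE 0.271, edgeR adjusted p = 0.637).

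Of the other sensors 8 were tested, and edgeR called 0, with 0 at an unadjusted p under 0.05 and 0 in DESeq2. *Eif2ak2*, the RNA-activated kinase PKR, had 220.5 and 102.2 CPM in KO cells at passages 42 and 34 and 125.5 and 111.9 CPM in WT cells (log2 fold change 0.43, SE 0.313, edgeR adjusted p = 0.675). *Cgas*, the sensor of cytosolic DNA, was named after its values were seen and had 50.9 and 42.7 CPM in KO cells and 52.6 and 39.8 CPM in WT cells.

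Of 11 adaptors and kinases tested 1 was called, with 2 at an unadjusted p under 0.05 in edgeR, and 4 of the 11 had positive fold changes. *Trim25*, a ubiquitin ligase that activates RIG-I, had 103.8 and 47.8 CPM in KO cells and 29.9 and 24.2 CPM in WT cells, and rose by 1.47 on the log2 scale (SE 0.337, edgeR adjusted p = 0.0432). Of 7 genes that restrain sensing or signalling 1 was called. *Usp18*, a protease that removes ISG15 and dampens the type I interferon receptor, had 61.7 and 4.56 CPM in KO cells and 2.49 and 1.97 CPM in WT cells, and rose by 3.89 (SE 0.902, edgeR adjusted p = 0.0457). Both calls were lost without the KO library of passage 42, at log2 fold changes of 0.72 and 0.92, and without either WT library. That of *Usp18* was also lost in DESeq2 (adjusted p = 0.151), and in edgeR with a filter of 1 CPM in all 4 libraries (adjusted p = 0.0580) and with counts summed per gene (0.0540).

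The 7 interferon targets tested lay above WT at both passages. All 7 had both KO libraries above both WT libraries, where 23.2% of all transcripts did so. Of these 7, *Oas1a* passed the filter only through the KO libraries. *Mx1*, the target not tested, had 21 and 1 counts in KO cells at passages 42 and 34 and 4 and 2 in WT cells. Called were 3 targets, where 1.51% of all transcripts were called higher: *Rsad2* (2.92, SE 0.380, edgeR adjusted p = 0.00224), *Cxcl10* (2.18, SE 0.297, adjusted p = 0.00274) and *Bst2* (3.16, SE 0.5995, adjusted p = 0.0175). DESeq2 also called 3, which were *Rsad2*, *Cxcl10* and *Isg15*. *Cxcl10*, a chemokine, had 37.4 and 40.4 CPM in KO cells at passages 42 and 34 and 6.57 and 10.4 CPM in WT cells. The median difference of the 7 targets from WT was 3.54 at passage 42 and 1.52 at passage 34. For the factors and sensors the value at passage 34 was 0.01; no test compared the 2 lists.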

How the data were processed

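RNA of *Tmpo* KO and WT imMDFs (2 libraries each, at passages 42 and 34) was analysed from the deposited raw counts. According to the paper's methods and the processing notes, the authors removed adapters with cutadapt, mapped reads to mm9 with TopHat2 2.0.9 and counted reads of a mapping quality above a threshold with htseq-count over 32757 RefSeq transcript IDs. Reads in no feature (49.9% to 56.5%) and ambiguous reads (12.1% to 13.4%) stayed out of library sizes and tests. Symbols and promoter sequences came from RefSeq tables of GRCm38.p6 (32308 IDs matched), and positions from an annotation of NCBIM37.

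Only transcripts that reached 1 CPM in each replicate of KO cells, of WT cells or of both were tested, with edgeR 4.0.16 in R 4.3.3 (TMM, quasi-likelihood test on genotype, Benjamini-Hochberg adjusted p under 0.05). The SE of an edgeR fold change was derived from the test, as the absolute log2 fold change over the square root of the F statistic. It thus restates the test. Intervals of ratios are 95% exact conditional binomial intervals. They cover counting error only and leave out the spread between libraries. They take each read as independent, which PCR copies of a molecule are not, so they can be too narrow even for counting error. The limit for a count of 0 is 3 counts. Alternatives were RLE factors, library totals, DESeq2 1.42.0, 2 further edgeR tests (exact, likelihood ratio), 2 other filters, counts summed per gene, a replicate block and each library left out.

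The 9 genes, the gene lists and the tests were chosen with earlier results of these data known. Some genes of these pathways are not reported here. Named are the 9 genes, in each list the genes called and otherwise up to 4 with the smallest p, the markers with the highest level and the 10 transcripts most like the tested genes in profile. Tables and plots were made with pandas 2.3.3, matplotlib 3.10.9, numpy 2.4.6 and scipy 1.17.1 under Python 3.11.15.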

Additional observations from a re-analysis of the deposited data

Results flagged for a closer look

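Of 46 genes named with a value at both passages (*Ticam1* not among them), 13 had opposite directions of the KO to WT difference at the 2 passages. The share of all transcripts that did so was not computed. The difference between the passages was not tested, since each passage has 1 library per genotype. *Dhx58* and *Tlr3* were higher in KO cells at passage 42 and lower at passage 34, and their differences (log2, passage 42 minus passage 34) lay 3.16 and 2.07 apart. *Eif2ak2* did the same with 1.04, the marker genes *Col3a1* and *Vim* with 2.06 and 0.37, *Adm*, a vasodilator peptide gene, with 2.25 and *Stat6* with 0.05, the last from a difference of 0.01 at passage 42 and -0.04 at passage 34. *Stat5b*, *Irf4* and *Irf8* were lower in KO cells at passage 42 and higher at passage 34, by -2.52, -1.02 and -0.46, and so were *Pdgfra*, *Tyr* and *Cgas*, by -1.76, -0.83 and -0.05. *Stat5b*, a STAT of growth hormone and cytokine signalling that was counted on part of its transcript, had 11 and 49 counts in KO cells at passages 42 and 34 and 29 and 17 in WT cells.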

How the results depend on the processing

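Among 13855 transcripts tested edgeR called 381, against 543 in DESeq2, 613 in the exact test and 638 in the likelihood ratio form. Without a filter it called 740 of 24857. Of the 7 genes tested 1 was called, against 2 in DESeq2 (*Stat2*, *Zbp1*), which gave no adjusted p for *Irf1* and *Ifih1*. The exact and the likelihood ratio test each called 3 of the 7 (*Stat2*, *Ifih1*, *Zbp1*), and the fit without a filter called 6 of 8. Of 46 pathway genes tested 5 were called, against 8 with the exact and 9 with the likelihood ratio test. Without a filter 9 of 82 were called. With a replicate block (replicate numbers equal passages), 1092 of 13855 transcripts were called, with 4 of the 7 genes tested (*Stat2*, *Ddx58*, *Ifih1*, *Zbp1*). The block fit also called 11 of 46 pathway genes, 10 higher in KO cells and *Ticam1* lower (log2 fold change -0.82). The labels give the passage but no source says that libraries of a passage were grown or prepared together. The deviations of same-numbered libraries from their genotype means correlated with r = 0.17 over 13855 transcripts. With 2 libraries per genotype these deviations mirror each other, so the 2 pairs give the same value. Leaving out 1 library gave 109 to 1291 transcripts, 0 to 6 of the 9 genes and 2 to 11 pathway genes. The log2 fold changes then ranged from -0.0075 to 2.27 for *Ddx58*, from -0.43 to 2.22 for *Dhx58* and from -0.31 to 1.85 for *Tlr3*, lowest and reversed without KO replicate 2 and highest without KO replicate 1. *Stat2* remained called under the alternatives that kept all libraries, with adjusted p between 6.76e-09 and 0.0477. With 1 library left out its log2 fold change lay between 0.78 and 2.41, and it was called only without KO replicate 1. The passage fit called 3 of the 7 genes tested, against 1 of 8 without a filter, 0 of 7 in DESeq2 and 0 of 7 without the genotype block (0 at an unadjusted p under 0.05). The cause was not tested. *Irf7*, *Irf9* and part of *Ifih1*, *Irf1* and *Zbp1* are limited by the reads that several IDs share.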

Other observations

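Transcripts outside the 9 genes were ranked by how close their profile of log2 CPM over the 4 libraries, centred on its own mean, lay to the mean profile of the 7 genes tested. The distances are a description over 4 libraries that share depth and passage. The nearest were *Pcdhga8* (distance 0.19), a clustered protocadherin, *Irgm1* (0.23), an interferon-inducible GTPase, *Col11a1* (0.26), a fibrillar collagen chain, and *Pcdhb19* (0.30), a second protocadherin. *Irgm1* had 88.2 and 29.0 CPM in KO cells at passages 42 and 34 and 17.7 and 22.1 CPM in WT cells. Of the 7 genes tested *Ddx58* lay at 0.41, *Tlr3* at 0.49 and *Stat2* at 0.51 from that mean. *Dhx58* lay at 0.74, *Ifih1* at 0.88, *Zbp1* at 1.13 and *Irf1* at 2.22. All of the 10 nearest outside transcripts thus lay closer to the mean than any of the 7 genes. They were picked as the nearest of all transcripts tested, and the mean includes *Irf1*, which was not higher in KO cells. The order therefore does not show that they share the profile better than the 7 genes do. The other 6 of the 10 nearest were *Cdo1*, *Slc16a7*, *Prr16*, *Parp9*, *Parp12* and *Adm*, at 0.31 to 0.38. None of the 10 was called between the genotypes by edgeR (adjusted p from 0.0998 to 0.381).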
